A study of Mus musculus with 12 samples.

Results

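The genes described here are 10 genes of megakaryocytes and platelets: Itga2b, Pf4, Vwf, Plek, Selp, Gp1bb, Gp9, Clec1b, Cd9 and F2r. They were taken by symbol from the gene rows of 12 plates of single mouse cells labelled as haematopoietic stem cells (HSC). All 10 had a row on at least 1 plate, out of 22307 gene symbols over all plates. Each had a row on exactly the plates where it was counted at least once, and 5 of the 10 (Itga2b, Pf4, Gp9, Cd9 and F2r) had a row on all 12 plates. Vwf and Selp had one on 11 plates, Plek on 10, Clec1b on 4 and Gp1bb on 1.

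Megakaryocytes are the large marrow cells that shed platelets, and platelets stop bleeding by sticking to damaged vessel walls, to each other and to fibrin. Their surface carries receptors for von Willebrand factor, fibrinogen, thrombin and podoplanin, and their granules hold proteins such as platelet factor 4, von Willebrand factor and P-selectin that are released or displayed on activation. Blood stem cells share several of these transcripts with megakaryocytes, a state often called priming, and some of the same genes also serve in the endothelial cells from which the first stem cells bud in the embryo.

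The study built a mouse line with many possible genetic barcodes to trace cell lineages, and these 12 plates hold the RNA part of a multi-omic measurement of single HSC. Cells came from the AGM (aorta-gonad-mesonephros, the embryonic region where the first HSC arise; 2 plates), the fetal liver (5 plates) and the bone marrow (5 plates). Each cell was sorted into its own well of a 96-well plate, its nucleus was removed on beads, and the cytoplasmic polyadenylated RNA was sequenced by scSTRT-seq, which tags each molecule with a unique molecular identifier (UMI). The labels used here give no age, sex, strain, barcode induction or sort markers for any group, so all 3 groups differ as far as stated only in tissue. They all share the HSC label and the nucleus removal, and bone marrow plates 4 and 5 have the tissue only in their titles. A code in the titles gives 5 origins: 1 for both AGM plates, 1 for fetal liver plates 1 to 3, 1 for fetal liver plates 4 and 5, 1 for bone marrow plates 1 to 3 and 1 for bone marrow plates 4 and 5. Whether a code is 1 animal or a pool is not stated, so the p-values below measure the spread between these origins, and the AGM with its 1 origin was assumed to vary like the others.

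Of 1152 wells, 1020 were kept as cells: 143 from the AGM, 454 from the fetal liver and 423 from the bone marrow. Summed UMIs per plate ran from 2596681 to 15977740. The median cell held 159228 UMIs in the AGM, 54303 in the fetal liver and 59558 in the bone marrow, so shares of cells are given after thinning each cell to 20000 UMIs (141, 419 and 392 cells deep enough). Beside the labelled cell type, 14 stem cell markers were read, and each had UMIs in all 3 tissues. The median thinned cell held 6, 7 and 5 of them in the AGM, fetal liver and bone marrow. Any UMI in a tissue counted as present (Slamf1 had 12 in the AGM), so this is a description and not a test of the label. The endothelial junction gene Cdh5 stood at 104 counts per 1000000 UMIs (CPM, here and below with each origin's UMIs scaled by its TMM factor, a correction for composition, of 0.882 to 1.15) in the AGM, 2.08 in the fetal liver and 0 in the bone marrow. The erythroid list summed to 392 CPM in the AGM (plates 390 to 394), 1990 in the fetal liver (944 to 3087) and 1498 in the bone marrow (1281 to 1885). The fetal liver origins differed in it, with 2938 CPM on plates 1 to 3 and 1043 on plates 4 and 5, and in the globin gene Hbb-bt (1969 and 12.5 CPM).

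The positions of the genes in GRCm38 (GENCODE M21) are as follows, and all 10 are protein-coding. Itga2b lies at 11:102453297-102470122 and Plek at 11:16971206-17052381, both on the minus strand. Pf4 lies at 5:90772435-90773383 on the plus strand, Selp at 1:164115264-164150026 on the plus strand, Gp1bb at 16:18620317-18622403 on the minus strand and F2r at 13:95601803-95618487 on the minus strand. Chromosome 6 holds 4 of the 10: Gp9 at 6:87778072-87779768, Cd9 at 6:125460266-125494791, Vwf at 6:125546774-125686679 and Clec1b at 6:129397297-129409335, with Cd9 on the minus strand and the other three on the plus strand. Cd9 and Vwf are neighbours that point away from each other, 51982 bases apart, with 0 protein-coding genes wholly between them. Exons of Gp1bb overlap those of Sept5 on the same strand over 91.1% of its exonic bases, and reads of the pair may not be separable. Plek shares 4.44% of its exonic bases with Cnrip1 on the opposite strand, and since the strand setting of the counting is not given in the sources used here, reads there could be assigned to either. Cd9 shares 10.7% with the antisense transcript Gm26728 (27 UMIs in all), and Selp shares 9.93% with Gm16548 (55 UMIs in all). Clec1b shares 3.61% with Clec9a (28 UMIs in all).

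Stretches of DNA before a RefSeq start are shown here for the 5 genes that rose in a comparison. The counts are per gene and do not tell which start a transcript used. They come from RefSeq promoter sequences of GRCm38.p6, up to 250 bases before RefSeq's start of the gene, without bases that GENCODE counts as exons of it; 9 of the 10 genes had an entry, all but Vwf. RefSeq and GENCODE give different starts for Itga2b and Plek: their stretches lie inside the genes as GENCODE draws them, 180 and 43413 bases from the first base, so for Plek the stretch precedes only the shorter RefSeq form. Capitals mark matches to GATAAG (the core letters bound by GATA factors) or AGGAAG (core letters of ETS factors), read on both strands as CTTATC and CTTCCT. These letters were chosen after several motifs had been looked at.
Itga2b: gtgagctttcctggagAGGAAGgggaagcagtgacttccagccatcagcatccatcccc
Pf4: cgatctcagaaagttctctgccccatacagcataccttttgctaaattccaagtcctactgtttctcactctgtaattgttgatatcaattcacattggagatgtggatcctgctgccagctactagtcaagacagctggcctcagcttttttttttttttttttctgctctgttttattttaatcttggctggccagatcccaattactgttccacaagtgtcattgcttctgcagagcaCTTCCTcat
Plek: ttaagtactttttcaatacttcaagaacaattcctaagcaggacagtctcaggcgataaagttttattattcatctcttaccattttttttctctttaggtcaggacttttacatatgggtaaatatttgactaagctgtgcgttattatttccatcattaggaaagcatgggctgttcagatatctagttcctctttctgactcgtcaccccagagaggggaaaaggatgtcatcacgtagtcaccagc
Gp9: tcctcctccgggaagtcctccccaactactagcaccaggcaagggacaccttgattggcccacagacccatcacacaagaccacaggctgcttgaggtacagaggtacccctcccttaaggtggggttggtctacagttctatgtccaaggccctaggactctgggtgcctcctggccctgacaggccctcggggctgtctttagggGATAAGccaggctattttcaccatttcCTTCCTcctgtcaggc
Cd9: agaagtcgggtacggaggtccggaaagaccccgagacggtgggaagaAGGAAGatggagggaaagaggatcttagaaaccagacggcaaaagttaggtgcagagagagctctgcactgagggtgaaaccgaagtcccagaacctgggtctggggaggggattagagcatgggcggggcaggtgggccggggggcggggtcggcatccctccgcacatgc
In this order the sequences lie at chr11:102469884-102469942 on the minus strand, chr5:90772185-90772434 on the plus strand, chr11:17008719-17008968 on the minus strand, chr6:87777820-87778069 on the plus strand and chr6:125494792-125495010 on the minus strand. Over the 250 bases before the RefSeq start, AGGAAG or its reverse was found in 5 of the 9 genes (Cd9, Gp9, Itga2b, Pf4 and Selp), against 29.2% of 27025 promoters. GATAAG or its reverse was found in 2 of the 9 (Gp9 and Clec1b), against 6.60% of all promoters. A match is a run of letters and not a measured binding site.

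For the tests, UMIs of the kept cells were summed over the plates of each origin and compared with edgeR's quasi-likelihood test over 15472 genes, with Benjamini-Hochberg adjustment over all of them. A difference was called at an adjusted p under 0.05. Gp1bb was too low to be tested, so 9 of the 10 genes were. A sum over cells cannot tell fewer positive cells from less RNA per cell, so shares of cells are given beside the sums.

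Itga2b encodes the αIIb integrin chain (CD41), which with the β3 chain forms the platelet fibrinogen receptor and is also an early surface marker of emerging blood cells. Its level was 16.8 and 10.4 CPM on the AGM plates. It stood at 1.86, 1.80, 10.3, 4.89 and 0.301 CPM on fetal liver plates 1 to 5, and at 17.9, 38.2, 40.7, 66.8 and 25.99 CPM on bone marrow plates 1 to 5. The 3 tissues did not overlap on any plate: the fetal liver was lowest and the bone marrow highest, with the nearest plates of neighbouring tissues close together. Itga2b rose in the bone marrow against the fetal liver by 3.23 ± 0.53 (SE) on the log2 scale, 9.39-fold, with an adjusted p of 0.000589 in edgeR. The fetal liver against AGM difference of -1.89 ± 0.57 (adjusted p 0.0640) and the bone marrow against AGM difference of 1.34 ± 0.62 (adjusted p 0.224) did not pass. After thinning, Itga2b had a UMI in 12.9% ± 3.32 of AGM cells (SD of plates, n = 2), 2.81% ± 1.78 of fetal liver cells (n = 5) and 15.2% ± 11.5 of bone marrow cells (n = 5). The bone marrow share ran from 7.25% on plate 5 to 34.8% on plate 4, with 7.61%, 10.6% and 15.5% on plates 1 to 3.

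Pf4 encodes platelet factor 4, a chemokine stored in platelet α-granules. It measured 45.9 and 49.0 CPM on the AGM plates, 32.3, 27, 38.7, 28.4 and 65.1 CPM on fetal liver plates 1 to 5, and 63.8, 99.6, 46.7, 164 and 124 CPM on bone marrow plates 1 to 5. Bone marrow plates 2, 4 and 5 were above every AGM and fetal liver plate, while bone marrow plates 1 and 3 lay among them. Pf4 rose 2.93-fold in the bone marrow against the fetal liver (log2 1.55 ± 0.32, edgeR adjusted p 0.00565). Against the AGM, the fetal liver difference was -0.39 ± 0.38 (adjusted p 0.682) and the bone marrow difference 1.16 ± 0.40 (adjusted p 0.0801). The share of thinned cells with a Pf4 UMI was 24.0% ± 3.24 in the AGM, 22.6% ± 17.3 in the fetal liver and 23.0% ± 12.6 in the bone marrow. Fetal liver plate 5 alone had 53.3%, and without it the fetal liver share was 14.97% ± 2.13 (n = 4). The molecules were concentrated in few cells, and the highest single count of any of the 10 genes, 206 UMIs, was Pf4 in a cell of bone marrow plate 1. Cells were also left out by a list of 12 late megakaryocyte markers, counted before thinning. The list holds Rgs18, found in 17.0%, 68.7% and 57.9% of thinned AGM, fetal liver and bone marrow cells. A cell with 3 of the markers need not be a megakaryocyte, and deep cells reach 3 more easily. When the cells with UMIs of at least 3 late megakaryocyte markers were left out (70 AGM, 105 fetal liver and 91 bone marrow cells), the bone marrow against fetal liver difference was 1.11 and was no longer called (adjusted p 0.102), the bone marrow against AGM difference became 2.92 (adjusted p 0.000428), and the fetal liver against AGM difference turned to 1.81 (adjusted p 0.0235).

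Vwf encodes von Willebrand factor, the adhesive protein that tethers platelets to exposed collagen; it is stored in platelet α-granules and in the Weibel-Palade bodies of endothelial cells. Its level was 122 and 116 CPM on the AGM plates. It fell to 19.96, 9.0, 34.0, 24.3 and 10.2 CPM on fetal liver plates 1 to 5 and stood at 15.4, 13.4, 0, 2.62 and 5.20 CPM on bone marrow plates 1 to 5. Both AGM plates were above every other plate, while the fetal liver and bone marrow plates overlapped. Vwf fell 5.86-fold in the fetal liver against the AGM (log2 -2.55 ± 0.47, edgeR adjusted p 0.00165) and 16.1-fold in the bone marrow against the AGM (log2 -4.01 ± 0.49, adjusted p 9.19e-06). It was also lower in the bone marrow than in the fetal liver, 2.74-fold (log2 -1.45 ± 0.42, adjusted p 0.0483), at the edge of the threshold. The share of thinned cells with a Vwf UMI was 66.4% ± 10.6 in the AGM, 16.9% ± 5.13 in the fetal liver and 4.15% ± 2.47 in the bone marrow, so the share fell with the level. At least 10 UMIs of Vwf were present in 69 of 143 AGM cells (48.3%, exact 95% interval 39.8 to 56.8%), 17 of 454 fetal liver cells (3.74%) and 8 of 423 bone marrow cells (1.89%). These shares were not thinned, and the AGM cells were the deepest.

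The endothelial marker list moved with Vwf. Its summed level was 3606 CPM in the AGM (plates 3074 to 3883), 1554 in the fetal liver (1423 to 1696) and 1016 in the bone marrow (840 to 1142). Of 24 endothelial genes tested, 15 were lower and 1 higher in the fetal liver than in the AGM, and 17 were lower and 1 higher in the bone marrow. Over all genes tested, 1.91% were lower and 2.92% higher in the first comparison, and 3.63% and 5.29% in the second. Cdh5 and Plvap were at 0 in the bone marrow and Cldn5 had 1 UMI there. Within the AGM, the 90 thinned cells with a Vwf UMI held 13.5 endothelial markers on average and the 51 without held 12.5. Cdh5 was found in 72.2% of the first and 54.9% of the second. The part of endothelial transcripts in the Vwf difference was not tested.

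Selp encodes P-selectin, which sits in platelet and endothelial granules and binds leukocytes once displayed. Its level split the bone marrow by origin. Plates 1 to 3 of the first bone marrow origin held 51.5, 31.2 and 15.3 CPM, and plates 4 and 5 of the second held 0 and 1.30 CPM. The AGM plates stood at 2.66 and 1.97 CPM, and fetal liver plates 1 to 5 at 4.95, 5.40, 5.25, 0.251 and 1.51 CPM, where the second origin was again the lower one. No comparison of Selp passed: bone marrow against fetal liver gave 2.61 ± 1.16 (edgeR adjusted p 0.258), bone marrow against AGM 2.88 ± 1.55 (adjusted p 0.315) and fetal liver against AGM 0.27 ± 1.37 (adjusted p 0.960). With only the first bone marrow origin, bone marrow against fetal liver gave 3.53 and bone marrow against AGM gave 3.82. With only the second origin these differences were -1.95 and -1.69. Each of these fits holds 1 bone marrow library, so the differences restate the split and do not test it. At least 10 Selp UMIs were present in 24 bone marrow cells, all on plates 1 to 3 (12, 8 and 4 cells), in 3 AGM cells and in 1 fetal liver cell. The bone marrow origins also differed in depth, with median UMIs per cell of 92658, 68299 and 88133 on plates 1 to 3 and 29964 and 38944 on plates 4 and 5; the part of depth in the split was not tested.

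Gp9 and Gp1bb encode glycoproteins of the GPIb-IX-V complex, the platelet receptor that binds von Willebrand factor. Gp9 measured 42.1 and 53.9 CPM on the AGM plates, 97.0, 84.0, 112, 149.9 and 144 CPM on fetal liver plates 1 to 5, and 73.7, 84.4, 110.3, 112 and 65.3 CPM on bone marrow plates 1 to 5. Every fetal liver and bone marrow plate was above both AGM plates. Gp9 rose 2.66-fold in the fetal liver against the AGM (log2 1.41 ± 0.33, edgeR adjusted p 0.0142), in the opposite direction to Vwf. The bone marrow differed from the AGM by 0.90 ± 0.33 (adjusted p 0.0979) and from the fetal liver by -0.51 ± 0.26 (adjusted p 0.336), neither past the threshold. Thinned cells with a Gp9 UMI made up 33.8% ± 7.57 in the AGM, 57.0% ± 17.5 in the fetal liver and 23.9% ± 8.31 in the bone marrow. On fetal liver plate 5 the share was 86.7%, against 42.9 to 58.2% on the other fetal liver plates. Gp1bb had 6 UMIs in 5 cells, all on bone marrow plate 4 (2.62 CPM), and most of its exonic bases overlap Sept5. It had 0 UMIs in the AGM and fetal liver cells, but with that overlap its reads may go uncounted, so no limit on its share is drawn from the 0.

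Clec1b encodes the platelet receptor for podoplanin. It was found on 4 plates only: AGM plate 1 at 6.57 CPM, fetal liver plate 4 at 0.376, bone marrow plate 3 at 11.5 and bone marrow plate 4 at 1.31. Of the 88 bone marrow UMIs, 80 were in 1 cell of plate 3. The 121 UMIs of the AGM were spread over 14 cells of plate 1, 5 of them with at least 10. The summed CPM ratio was 39.6 for the AGM over the fetal liver (exact 95% counting interval 13.2 to 195, 121 against 3 UMIs) and 26.4 for the bone marrow over the fetal liver (8.75 to 131, 88 against 3 UMIs). These intervals cover counting error only, and across origins no comparison passed, with edgeR adjusted p of 0.361, 0.424 and 0.838 for fetal liver against AGM, bone marrow against fetal liver and bone marrow against AGM.

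F2r encodes a G-protein-coupled thrombin receptor; mouse platelets themselves sense thrombin through other members of its family. It measured 36.5 and 48.5 CPM on the AGM plates, 13.6, 12, 13.9, 9.52 and 5.42 CPM on fetal liver plates 1 to 5, and 21.9, 13.9, 8.38, 14.8 and 19.2 CPM on bone marrow plates 1 to 5. Both AGM plates lay above all others, which overlapped each other. The fetal liver against AGM difference was -1.92 ± 0.57 (edgeR adjusted p 0.0593) and the bone marrow against AGM difference -1.31 ± 0.57 (adjusted p 0.191), so neither passed. Its bone marrow against fetal liver difference was 0.60 ± 0.49 (adjusted p 0.588). The share of thinned cells was 33.2% ± 5.29 in the AGM, 10.8% ± 5.62 in the fetal liver and 7.71% ± 1.98 in the bone marrow. At least 10 UMIs were present in 40 of 143 AGM cells (28.0%), 10 of 454 fetal liver cells and 14 of 423 bone marrow cells.

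Cd9 encodes a tetraspanin, a membrane protein that organises integrins and is plentiful on platelets. It measured 119 and 143 CPM on the AGM plates, 103, 87.6, 104, 119 and 90.1 CPM on fetal liver plates 1 to 5, and 157, 197, 165, 217 and 281 CPM on bone marrow plates 1 to 5. All bone marrow plates were above all AGM and fetal liver plates. Cd9 rose 2.03-fold in the bone marrow against the fetal liver (log2 1.02 ± 0.23, edgeR adjusted p 0.0126). The bone marrow against AGM difference was 0.74 ± 0.29 (adjusted p 0.134), and the fetal liver against AGM difference was -0.28 ± 0.28 (adjusted p 0.693). Unlike the level, the share of thinned cells was not highest in the bone marrow: it was 70.6% ± 4.63 in the AGM, 56.5% ± 11.1 in the fetal liver and 52.3% ± 18.4 in the bone marrow. Bone marrow plates ranged from 29.3% on plate 1 to 75.8% on plate 4.

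Plek encodes pleckstrin, a protein kinase C substrate of platelets and leukocytes. It measured 20.6 and 44.4 CPM on the AGM plates, 6.19, 0, 7.14, 1.13 and 0 CPM on fetal liver plates 1 to 5, and 8.43, 8.97, 24.6, 17.9 and 32.5 CPM on bone marrow plates 1 to 5. Every fetal liver plate was below every AGM and bone marrow plate. Plek fell 10.5-fold in the fetal liver against the AGM (log2 -3.40 ± 0.79, edgeR adjusted p 0.0127) and rose 7.21-fold in the bone marrow against the fetal liver (log2 2.85 ± 0.71, adjusted p 0.0238). The bone marrow and AGM differed by -0.55 ± 0.79 (adjusted p 0.746). Thinned shares were 16.6% ± 1.13 in the AGM, 2.44% ± 2.87 in the fetal liver and 6.46% ± 2.75 in the bone marrow. The fetal liver value rests on 83 UMIs in 13 cells. Without the cells holding at least 3 late megakaryocyte markers the fetal liver against AGM difference was -0.78 (adjusted p 0.798) and the bone marrow against fetal liver difference 2.21 (adjusted p 0.277), so both calls were lost. Cnrip1, whose exons partly overlap on the other strand, stood at 13.4, 95.04 and 52.3 CPM in the AGM, fetal liver and bone marrow, a different order.

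**Figure D1:**
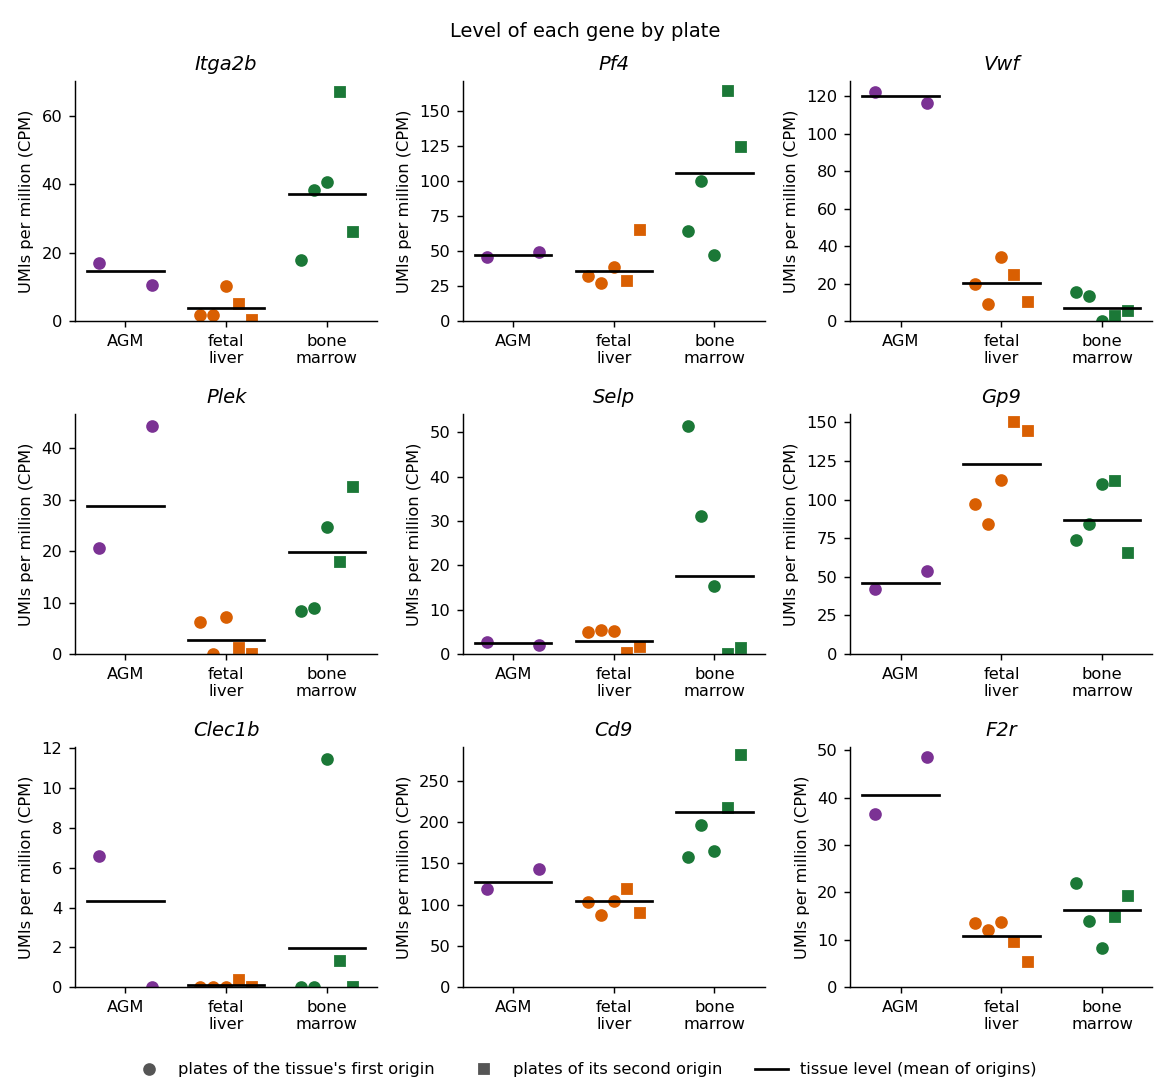
Level of 9 of the 10 genes in CPM (vertical axes, each from 0 and on its own scale) on each of the 12 plates, grouped by tissue; circles are plates of a tissue's first origin, squares those of its second, and the horizontal line is the tissue level (mean of the origins). Vwf and F2r are highest on both AGM plates, Itga2b and Cd9 are highest on the bone marrow plates, and Selp is high only on bone marrow plates 1 to 3.

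Counted over the list, fetal liver against AGM called 3 of the 9 tested genes: Gp9 higher, Vwf and Plek lower. Over all 15472 genes tested, 4.83% were called, 2.92% higher and 1.91% lower. Bone marrow against fetal liver called 5 of the 9: Itga2b, Pf4, Plek and Cd9 higher and Vwf lower, with 4.73% of all genes called, 2.68% higher and 2.06% lower. Bone marrow against AGM called 1 of the 9, Vwf lower, with 8.92% of all genes called, 5.29% higher and 3.63% lower. The median difference of the 9 genes was -1.89, 1.55 and 0.74 on the log2 scale in these comparisons, against 0.0471, 0 and 0.0375 over all genes tested. The comparisons share libraries, so the low fetal liver level of a gene enters both of the first comparisons. Unadjusted p values under 0.05 were found for 5, 6 and 6 of the genes, and for 15.4%, 16.6% and 20.6% of all genes tested.

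Plates of the tissues did not overlap for 6 of the 9 genes in fetal liver against AGM (Itga2b, Vwf, Plek, Cd9 and F2r lower, Gp9 higher), where 11.9% of all genes were wholly higher and 14.2% wholly lower. Bone marrow against fetal liver gave 3 (Itga2b, Plek and Cd9 higher), against 3.54% wholly higher and 4.21% wholly lower. Bone marrow against AGM gave 5 (Itga2b, Gp9 and Cd9 higher, Vwf and F2r lower), against 11% wholly higher and 14.6% wholly lower. With 2 AGM plates, a separation from the AGM is easy to reach, and for Itga2b and Cd9 the nearest fetal liver and AGM plates all but touched.

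**Figure D2:**
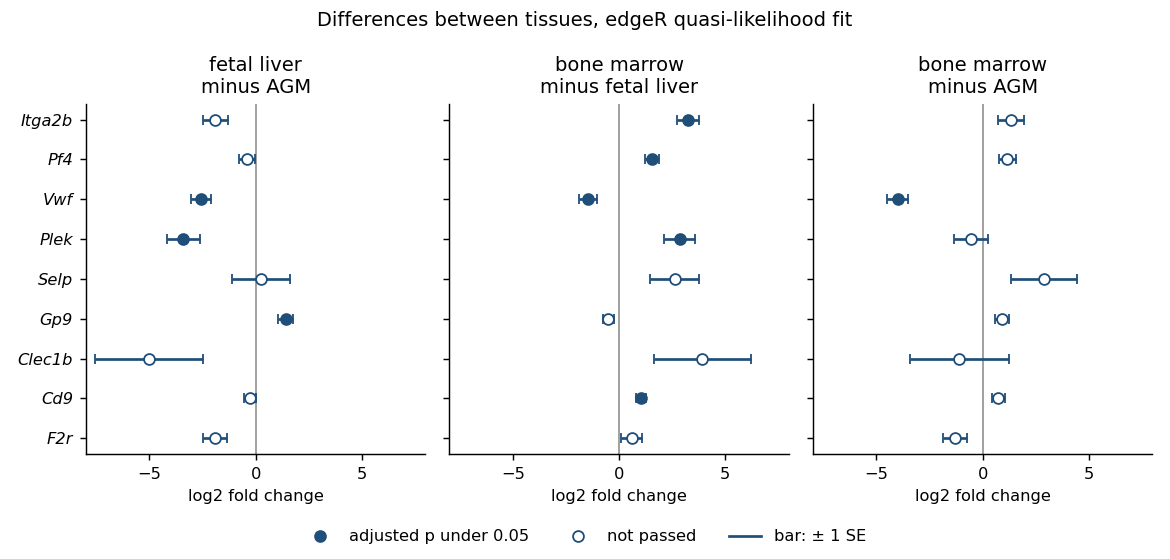
Difference between tissues on the log2 scale (horizontal axis) with its standard error for the 9 tested genes in the 3 comparisons; filled points passed an adjusted p of 0.05 in edgeR's quasi-likelihood test over 15472 genes. Vwf is the only gene past the threshold in all 3 comparisons, from -1.45 to -4.01, and the widest bars belong to Clec1b and Selp.

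The calls differed in how they stood up when 1 plate was left out. The bone marrow against AGM call of Vwf held in all 31 alternatives tried, with a highest adjusted p of 0.0131. Leaving out fetal liver plate 4 ended every other call: in fetal liver against AGM it gave adjusted p values of 0.0540 for Vwf, 0.281 for Plek and 0.272 for Gp9, and in bone marrow against fetal liver 0.0806 for Itga2b, 0.536 for Pf4, 0.346 for Plek, 0.257 for Cd9 and 0.534 for Vwf. That plate held 8140383 of the 11525376 UMIs of its origin, and without it the share of all genes called also dropped, to 1.19% and 0.766%. Leaving out bone marrow plate 5 ended the calls of Plek (0.0677) and Gp9 (0.0531) in fetal liver against AGM and of Plek (0.140), Cd9 (0.0566) and Vwf (0.138) in bone marrow against fetal liver. Without fetal liver plate 2 Plek was not called in either comparison (0.0696 and 0.109). Without fetal liver plate 3 Gp9 was not called in fetal liver against AGM (0.0523), and Itga2b was (0.0467), as it was without AGM plate 2 (0.0348). F2r was called in fetal liver against AGM without AGM plate 1 (0.0270). The bone marrow against fetal liver call of Plek was also lost without bone marrow plate 3 (0.0718). That of Vwf was also lost without AGM plate 1 (0.0679) or 2 (0.0536), fetal liver plate 3 (0.179) and bone marrow plate 3 (0.256) or 4 (0.102), and held in 12 of 31 alternatives. Leaving out a whole origin, which leaves 1 library of that tissue, also moved calls. Without fetal liver plates 4 and 5, Plek and Gp9 were no longer called in fetal liver against AGM, nor Plek, Cd9 and Vwf in bone marrow against fetal liver. Without fetal liver plates 1 to 3, Cd9 and Vwf were not called in bone marrow against fetal liver and Selp was. Without bone marrow plates 4 and 5, Vwf was not called in that comparison and Selp was. When either bone marrow origin was left out, Itga2b and F2r were called lower in fetal liver against AGM, where 14.7% and 14.1% of all genes were then called.

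Within single cells most molecules of the genes sat in a minority of the positive cells. Of 2703 pairs of a cell and a gene with at least 1 UMI, 49.0% had only 1 or 2 UMIs, 20.2% had 3 to 9, and the 832 pairs (30.8%) with at least 10 held 87.0% of all UMIs of these genes. Pairs with 1 or 2 UMIs made up 39.6% in the AGM, 51.0% in the fetal liver and 53.6% in the bone marrow. In the fetal liver pairs with 3 to 9 UMIs (26.6%) outnumbered those with at least 10 (22.4%). Over genes of any kind, the median UMIs per detected gene was 10 and 8 on the AGM plates and 2 to 8 on the fetal liver plates. It was 25 on bone marrow plate 1 and 3 to 4.5 on bone marrow plates 2 to 5. No share at 10 UMIs was taken over other genes, so such counts, here and elsewhere, may not be particular to these genes. All cells carry the same HSC label, so no cell type that should lack the genes was present to set a background share. The 132 wells that failed the filter held too few UMIs to set one either. The 15 and 16 of them on bone marrow plates 4 and 5, with a median of 678 and 960 UMIs, held 5 UMIs of Cd9 on each plate.

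**Figure D3:**
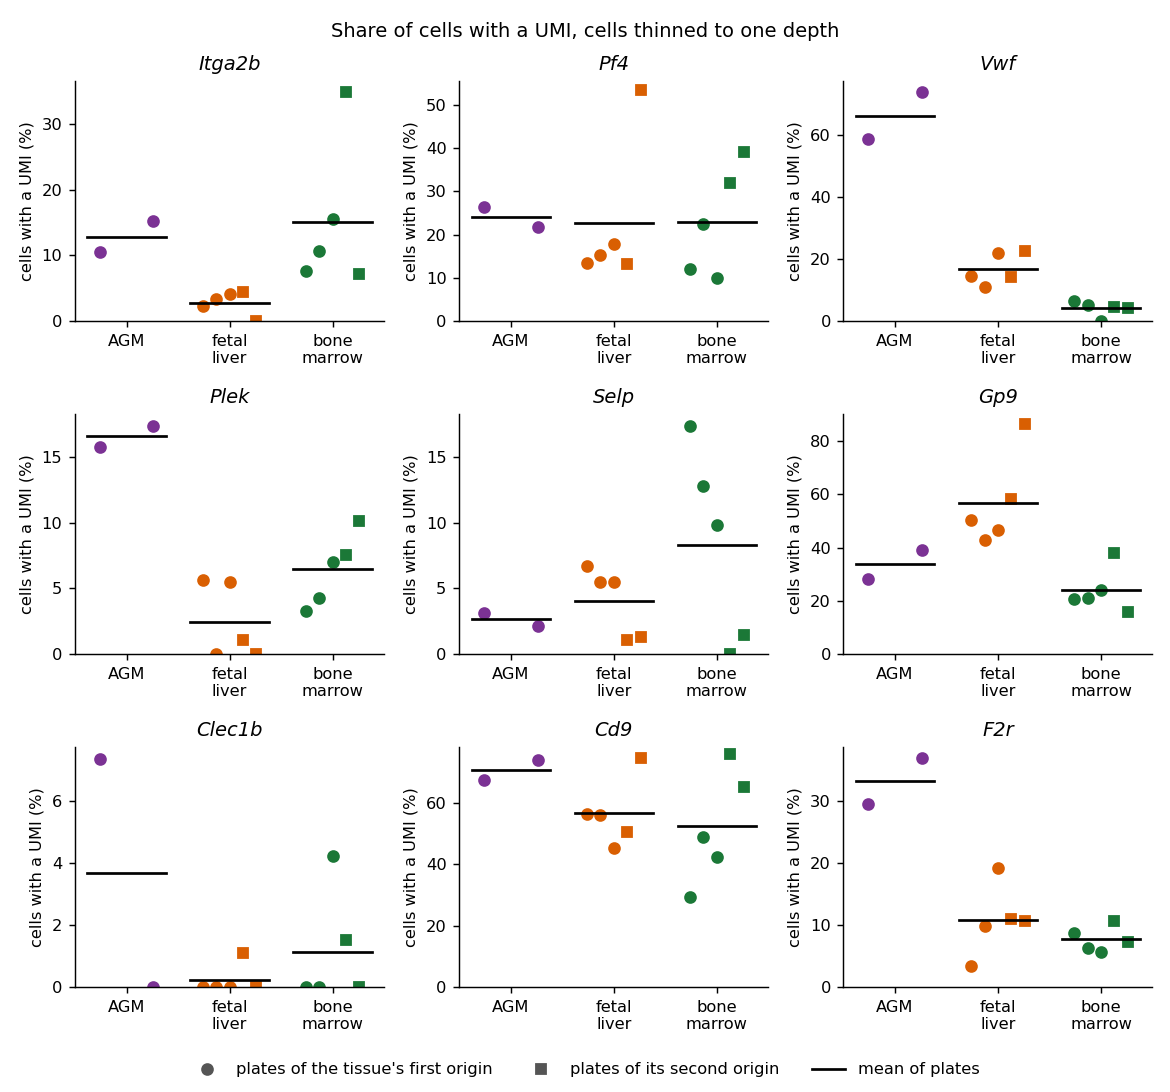
Share of cells with at least 1 UMI of each gene, in percent after thinning to 20000 UMIs per cell (vertical axes, each from 0), on each of the 12 plates; circles and squares are plates of a tissue's first and second origin, and the line is the mean of the plates. Vwf is found in 58.9 to 73.9% of AGM cells and at most 22.7% of cells on any other plate, and Pf4 and Gp9 have their highest shares on fetal liver plate 5.

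AGM cells carried the most members of the list at once, while the summed level of the 10 genes was highest in the bone marrow. That sum was 431 CPM in the AGM, 304 in the fetal liver and 505 in the bone marrow. AGM cells also held the most genes of any kind, with medians before thinning of 5513, 4117 and 2631. The median thinned cell held 5, 4 and 3 genes of the platelet receptor list below, and 6, 7 and 5 stem cell markers. The part of the number of genes detected was not tested. The thinned cell held 2.64 ± 0.23 of the 10 genes in the AGM (mean and SD of plates, n = 2), 1.73 ± 0.43 in the fetal liver (n = 5; 1.54 without plate 5) and 1.42 ± 0.39 in the bone marrow (n = 5). None of the 10 was found in 7 AGM cells (4.96%), 56 fetal liver cells (13.4%) and 83 bone marrow cells (21.2%). At least 3 were found in 71 AGM cells (50.4%), 95 fetal liver cells (22.7%) and 56 bone marrow cells (14.3%). At least 5 were found in 9, 0 and 6 cells, and the 2 cells with 6 genes were both from the bone marrow. With detection set at 10 UMIs and no thinning, 46 AGM cells (32.2%), 8 fetal liver cells (1.76%) and 20 bone marrow cells (4.73%) held at least 3 genes, but AGM cells were also the deepest.

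**Figure D4:**
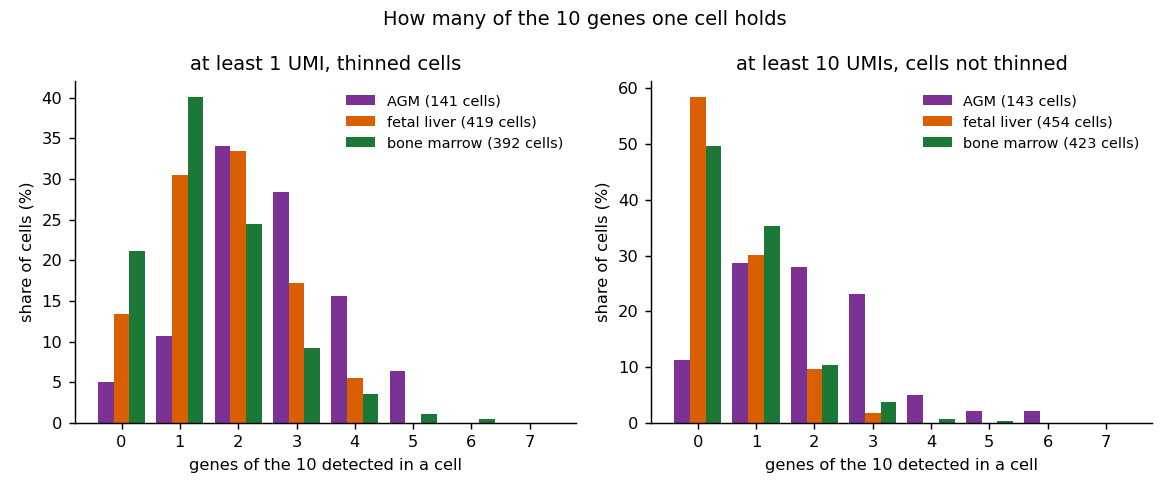
Percent of cells (vertical axis, from 0) by the number of the 10 genes detected in the cell (horizontal axis). The 3 tissues are the AGM, fetal liver and bone marrow. The left panel shows thinned cells, with any UMI counted as detection. The right panel shows cells without thinning, with detection set at 10 UMIs, where AGM cells were also the deepest. On the left, cells with 0 genes make up 4.96%, 13.4% and 21.2% of the 3 tissues, and cells with at least 3 make up 50.4%, 22.7% and 14.3%. On the right, cells with at least 3 make up 32.2%, 1.76% and 4.73%.

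Co-detection was described by setting the cells with a UMI of both genes against the number that the plate shares of each gene multiplied together would give, summed over plates; no test was made. Over all pairs, the AGM had 390 such co-detections against 386 (ratio 1.01, plates 0.994 to 1.036), the fetal liver 494 against 477 (1.04, plates 0.996 to 1.082) and the bone marrow 358 against 311 (1.15, plates 0.946 to 1.245). So in the AGM and fetal liver the genes met in a cell about as often as their shares give, and slightly more often in the bone marrow, where 1 plate was below 1. No such ratio was taken over other genes. Cells of a plate that differ in the number of genes detected raise it for any pair, so it may not be particular to these genes. Among pairs with a product of at least 5 cells, 10 of 19 were above 1 in the AGM, 9 of 15 in the fetal liver and 12 of 16 in the bone marrow.

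The AGM pairs with the highest ratios were Itga2b with F2r (8 cells against 5.53, ratio 1.45), Pf4 with Plek (8 against 5.69, 1.41) and Itga2b with Gp9 (7 against 5.58, 1.25), and the lowest was Vwf with Gp9 (22 against 29.2, 0.75). In the fetal liver the highest were Itga2b with Gp9 (9 against 6.02, 1.49), Gp9 with F2r (32 against 24.6, 1.30) and Pf4 with Vwf (21 against 16.9, 1.24), and the lowest was Pf4 with F2r (5 against 9.87, 0.51). In the bone marrow the highest were Selp with Cd9 (20 against 14.2, 1.41), Plek with Gp9 (8 against 5.68, 1.41) and Gp9 with F2r (10 against 7.34, 1.36), and the lowest was Pf4 with Selp (2 against 5.68, 0.35). Most of these rest on fewer than 25 cells. Counting only cells with at least 10 UMIs of a gene, the AGM pair Vwf and Gp9 was again low (11 against 18.8, 0.58), as was Vwf with Plek (2 against 6.74, 0.30), while Pf4 with Gp9 was the highest in the AGM (9 against 5.59, 1.61) and the fetal liver (11 against 6.64, 1.66). Itga2b with Cd9 was the highest in the bone marrow at that threshold (12 against 7.004, 1.71).

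**Figure D5:**
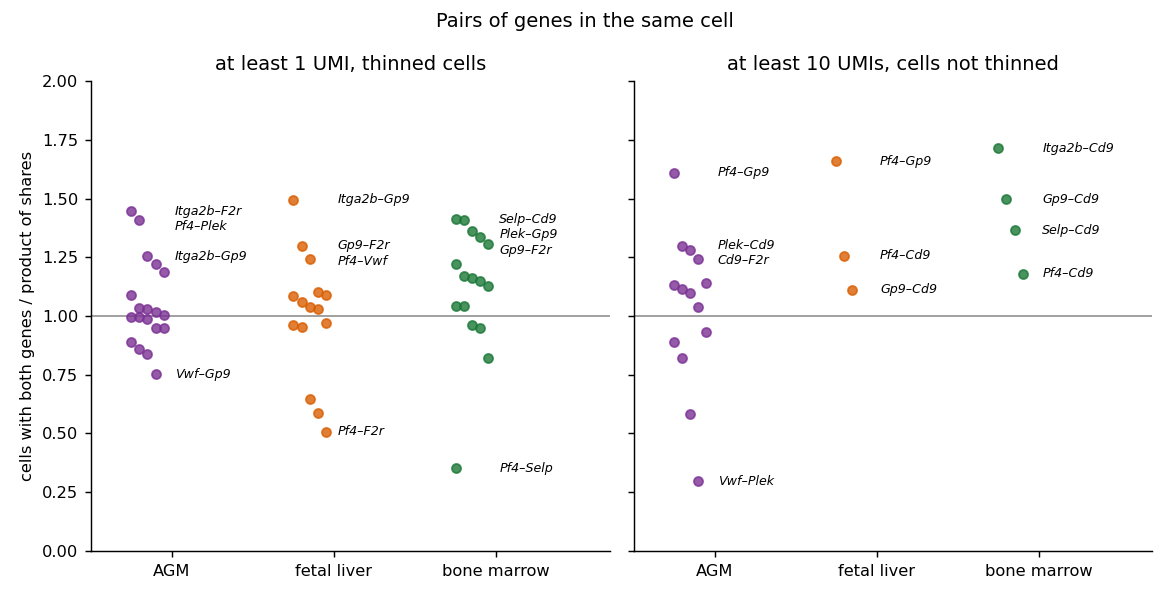
Ratio of cells with both genes to the product of their plate shares (vertical axis, 1 where they are equal) for each pair with a product of at least 5 cells: on the left with detection at 1 UMI in thinned cells (19 pairs in the AGM, 15 in the fetal liver and 16 in the bone marrow), on the right at 10 UMIs without thinning (14, 3 and 4 pairs). On the left the median ratio is 1.002, 1.04 and 1.16, and the lowest pairs are Vwf with Gp9, Pf4 with F2r and Pf4 with Selp.

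A small number of cells held at least 10 UMIs of 4 or more of the genes at once: 13 in the AGM (9 on plate 1 and 4 on plate 2), 0 in the fetal liver and 4 in the bone marrow (on 3 plates). Of the 13 AGM cells, 11 were at that level for Gp9, 10 for Cd9, 9 for F2r and 7 each for Itga2b, Pf4, Vwf and Plek. All 13 also held UMIs of the endothelial genes Cdh5 and Cldn5, and 12 held the signalling regulator Rgs18. At least 10 UMIs of Rgs18 were present in 7 of the 13. These cells were not thinned, so their counts are not comparable with the thinned shares that follow. Over all AGM cells, after thinning, Cdh5 was found in 66.0%, Cldn5 in 82.3% and Rgs18 in 17.0%, so the 2 endothelial genes were common in the AGM at large. Of other late megakaryocyte markers, Itgb3 was found in 6 of the 13 (2 with at least 10 UMIs), Treml1 in 4 (3 with at least 10), Gp5 in 1 and the platelet chemokine gene Ppbp in 0. In 1 AGM cell of 461103 UMIs, the counts were 125 for Plek, 104 for Gp9, 45 for Itga2b, 15 for Pf4, 15 for F2r and 9 for Vwf. In another AGM cell, of 342426 UMIs, they were 128 for Vwf, 97 for Gp9, 94 for Cd9, 59 for Pf4, 20 for F2r, 20 for Selp and 0 for Plek. All 4 bone marrow cells were at that level for Itga2b, Gp9 and Cd9, 2 of them for Pf4 and 2 for Selp, and none for Vwf or Plek; 3 held Gp5, 1 held Treml1 and 0 held Itgb3, Cdh5 or Ppbp. The bone marrow cell on plate 3 held 104 UMIs of Gp9, 95 of Itga2b, 89 of Gp5, 78 of Cd9 and 0 of Pf4. These 13 AGM cells were deep, with a median of 277727 UMIs against 159228 over all AGM cells.

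Other megakaryocyte and platelet genes were read from lists chosen with earlier results of these data known, so their counts are a description. Late megakaryocyte markers summed to 172 CPM in the AGM (plates 166 to 182), 237 in the fetal liver (157 to 285) and 432 in the bone marrow (304 to 523). Of the 12 markers, 8, 7 and 9 stood at 1 CPM or more in the AGM, fetal liver and bone marrow. Gp6 had 0 UMIs in all 3 tissues, Tubb1 had 0 in the AGM and 2 in each of the others, and Ppbp stood at 4.10, 6.003 and 5.07 CPM. The highest were Rgs18 (40.5, 143 and 248 CPM), Nrgn (51.0, 50.1 and 104) and P2rx1 (51.8, 29.1 and 31.7). Gp5, the subunit of the GPIb-IX-V complex next to Gp9, was at 0.0357, 1.86 and 22.1 CPM, and its ratio of bone marrow to AGM was 593 (counting interval 106 to 23456, 646 against 1 UMI, edgeR adjusted p 0.00945). Itgb3, the β3 partner chain of Itga2b, had 404 UMIs in the AGM, 3 in the fetal liver and 249 in the bone marrow, where the fetal liver was lowest as for Itga2b. The ratio of AGM to fetal liver was 132 (44.9 to 644, adjusted p 0.00627) and of bone marrow to fetal liver 74.8 (25.3 to 365, adjusted p 0.0172).

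Of 16 megakaryocyte transcription factor and signalling genes, 2 rose and 1 fell in the fetal liver against the AGM, 2 rose and 0 fell in the bone marrow against the fetal liver, and 4 rose and 1 fell in the bone marrow against the AGM. Over all genes tested, 2.92% rose and 1.91% fell in the first comparison, 2.68% and 2.06% in the second, and 5.29% and 3.63% in the third. The same shares apply to the lists in the paragraphs below. Runx1, a regulator of blood emergence and platelet formation, fell from 144 CPM in the AGM to 38.4 in the fetal liver (log2 -1.91 ± 0.34, edgeR adjusted p 0.00136). In the bone marrow against the fetal liver Gfi1b, a repressor needed for platelets and red cells, rose from 15.2 to 79.2 CPM (2.38 ± 0.36, adjusted p 0.000306). Gata2 also rose there (adjusted p 0.0405), and Nfe2, a factor of platelet release, was higher in the bone marrow than in the AGM (352.5 against 119 CPM, adjusted p 0.000499).

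Of 20 platelet receptor and adhesion genes, 1 rose and 3 fell in the fetal liver against the AGM, 3 rose and 1 fell in the bone marrow against the fetal liver, and 4 rose and 1 fell in the bone marrow against the AGM. Slamf1, also used as a stem cell marker, rose from 0.428 CPM in the AGM to 16.2 in the fetal liver (5.22 ± 0.99, edgeR adjusted p 0.00221), and the water channel gene Aqp1 fell from 22.1 to 1.37 CPM (adjusted p 0.0132). Cd63, a tetraspanin like Cd9 that is found in platelet granules, rose from 275 CPM in the fetal liver to 593 in the bone marrow (1.11 ± 0.20, adjusted p 0.00160), and Itga6 rose from 9.77 to 44.8 (2.20 ± 0.46, adjusted p 0.00687).

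Of 17 granule and secreted protein genes, 1 rose and 4 fell in the fetal liver against the AGM, 2 rose and 1 fell in the bone marrow against the fetal liver, and 2 rose and 3 fell in the bone marrow against the AGM. Srgn, the granule proteoglycan, rose from 279 CPM in the AGM to 1198 in the fetal liver (2.10 ± 0.27, edgeR adjusted p 3.86e-05) and stood at 1423 in the bone marrow. Sparc, a matrix protein of platelet granules and also of endothelium, fell from 365 to 3.93 CPM in the fetal liver (-6.53 ± 0.37, adjusted p 1.35e-09) and stood at 2.98 in the bone marrow. Apoe fell from 662 to 39.7 CPM in the fetal liver (adjusted p 2.42e-09) and rose to 452 in the bone marrow (adjusted p 2.01e-09). Angpt1 rose from 110.0 CPM in the fetal liver to 319.9 in the bone marrow (1.54 ± 0.23, adjusted p 0.000224). F10, the coagulation factor gene, had 1859 UMIs in the AGM and 0 in the bone marrow, at least 675-fold lower (against a floor of 3 counts over the group, adjusted p 5.16e-07).

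Of 25 signalling and cytoskeleton genes, 4 rose and 3 fell in the fetal liver against the AGM, 6 rose and 0 fell in the bone marrow against the fetal liver, and 5 rose and 2 fell in the bone marrow against the AGM. Tbxas1, which makes thromboxane, rose from 2.28 CPM in the AGM to 116 in the fetal liver (5.66 ± 0.37, edgeR adjusted p 6.89e-09) and stood at 202 in the bone marrow. Rgs18 rose from 40.5 to 143 CPM (1.82 ± 0.29, adjusted p 0.000386) and stood at 248 in the bone marrow. Cavin2 had 691 UMIs in the AGM, 0 in the fetal liver and 544 in the bone marrow (adjusted p 1.78e-05 and 3.07e-05 against the fetal liver). Lat and Tuba8 rose in the bone marrow against the fetal liver (adjusted p 0.0221 and 0.0359), and Myl9 had 1730 UMIs in the AGM and 1 in the bone marrow (adjusted p 5.39e-05). Of the 32 calls that the naming rule selected from these 4 lists among the genes reported, 15 held with each plate left out in turn. The other 17 were lost without fetal liver plate 4, and 11 of them with no other plate left out; the 6 that other plates also ended were those of Gata2, Itgb3, Lat and Tuba8 in bone marrow against fetal liver and of Itgb3 and Aqp1 in fetal liver against AGM.

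The genes whose level was most like a member over the 12 plates were listed by Pearson correlation of log2(CPM + 1) over 8126 genes, as a description in which the plates share origins and depth. Itga2b was nearest to Abcg2 (r = 0.944), Klf9 (0.917) and Bgn (0.913). Pf4 was nearest to Igbp1 (0.914), Upp1 (0.901) and S100a6 (0.877), and Vwf to Nisch (0.964), Smarce1 (0.953) and Mmd (0.930).

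Markers of other cell types differed between the tissues beside these genes. The mast cell list summed to 78.0 CPM in the AGM (plates 42.7 to 146) against 5.02 in the fetal liver (2.63 to 9.13) and 9.74 in the bone marrow (0 to 28.3), and the stroma list to 61.6 (52.3 to 66.5), 1.11 (0 to 2.41) and 5.08 (0.650 to 13.5). The granulocyte list summed to 446 (444 to 448), 486 (452 to 552) and 893 (794 to 1029) in the same order. The macrophage list summed to 339 (337 to 344), 646 (584 to 710) and 661 (556 to 748). In the bone marrow Prtn3 alone held 826 CPM of the granulocyte sum and Lyz2 618 CPM of the macrophage sum. Mpo of the granulocyte list went the other way, from 266 CPM in the AGM to 14.1 in the bone marrow. Of 8 granulocyte genes tested, 2 were higher and 1 was lower in the bone marrow than in the AGM. Of 11 macrophage genes tested, 1 was higher and 0 were lower there. Over all genes tested, 5.29% were higher and 3.63% lower in that comparison. The lymphocyte list summed to 77.2 (72.4 to 79.7), 165 (138 to 231) and 145 (90.0 to 170), and the hepatocyte list to 55.9 (50.5 to 58.7), 55.0 (28.8 to 83.2) and 63.1 (54.1 to 92.1). When cells with UMIs of at least 3 markers of any of these types or of the erythroid list were left out (122 of the 143 AGM, 258 of the 454 fetal liver and 163 of the 423 bone marrow cells), Vwf was still lower than in the AGM, by log2 -3.61 in the fetal liver and -3.83 in the bone marrow. Under the same omission Itga2b, Pf4 and Cd9 differed between bone marrow and fetal liver by 3.47, 1.43 and 1.11, close to the values with all cells but not called, and Plek by 0.85 and Vwf by -0.22. Gp9 and Plek then differed between fetal liver and AGM by 0.92 and -0.94, neither called, and Cd9 was called higher in the bone marrow than in the AGM (2.19). The share of all genes called in bone marrow against fetal liver was then 1.23%. The part of these cell types in the results was not tested further.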

How the data were processed

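Deposited UMI counts per gene and well were used as the authors left them; per the submitters' processing notes they were made with UMI-tools, featureCounts and SAMtools on mm10. Which annotation was counted, and whether by strand, is not given in the sources used here. Each of the 12 files is 1 plate, and 0 columns belonged to other samples. All plates share the same 96 well barcodes. A well was kept as a cell if 1000 genes or more, 3000 UMIs or more and under 20% mitochondrial UMIs were counted in it; 1 cell per well was assumed and no doublet caller was run. Kept cells were summed per origin code (5 libraries, 6086932 to 24699454 UMIs) and fitted with edgeR 4.0.16 (TMM, filterByExpr, glmQLFit, glmQLFTest; R 4.3.3), with tissue as the only term, 2 residual and 18.1 prior degrees of freedom. The SE is the log2 difference over the square root of its F value. CPM are UMIs per 1000000 UMIs of the tested genes, scaled by the TMM factor of the origin, and a tissue level is the mean of its origins. Shares of cells were taken after drawing 20000 UMIs from each cell; 68 shallower cells were left out. Confidence intervals are exact (Clopper-Pearson) 95% intervals and, like the limit of 3 counts for a 0, cover counting error only.

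Genes named beside the 10 are, per list and comparison, up to 3 called genes with the smallest adjusted p, the 3 nearest genes to Itga2b, Pf4 and Vwf among those of at least 10 CPM on average, and markers whose level stands beside a result. Some genes of the lists are not reported here. A few genes of the single-cell counts and of the overlaps were named after their values were seen. The 10 genes and all lists were chosen with earlier results of these data known. Of the symbols, 98.1% matched the gene name table. Alternatives were DESeq2 1.42.0, limma 3.58.1 (voom on plates), RLE factors, other filters on genes and wells, plates as libraries with and without the plate number as a block, 2 tissues only, thinned sums, counts of cells, omission of cells with other markers and omission of each plate or origin. Counts of cells with at least 10 UMIs, and detection at 3 or 10 UMIs, were added after seeing the data. Figures were drawn with matplotlib 3.10.9.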

Additional observations from a re-analysis of the deposited data

Results flagged for a closer look

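Of 38 groups of 5 plates tested for a plate far from the rest, 6 had one. Chance marks about 1 in 20 groups, but that rate does not apply to 4 of the 6, the levels and shares of Gp1bb and of fetal liver Clec1b, where the other plates were all at 0 and any molecule stands apart. Pf4 had a UMI in 53.3% of thinned cells on fetal liver plate 5, against 13.2 to 17.8% on the other fetal liver plates; the plate had a median of 2 UMIs per detected gene, the lowest of all plates. Gp1bb was found on bone marrow plate 4 alone, at 2.62 CPM and in 1.52% of thinned cells (6 UMIs). Clec1b was found on fetal liver plate 4 alone among the fetal liver plates, at 0.376 CPM and in 1.10% of thinned cells (3 UMIs). On bone marrow plate 3 Clec1b stood at 11.5 CPM against 0 to 1.31 on the other bone marrow plates, with 94.1% of that plate's UMIs in 1 cell.

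Wells left out as too shallow or poor held a few molecules of these genes. Vwf had 12 UMIs in 1 of the 14 left-out wells of fetal liver plate 3, Pf4 had 4 UMIs in the left-out wells of bone marrow plate 4, and Cd9 had 5 UMIs in those of bone marrow plate 4 and 5 in those of bone marrow plate 5.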

How the results depend on the processing

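Under the alternatives, fetal liver against AGM called 5 of these genes with no filter on low counts, with DESeq2, or without either bone marrow origin, and 1 with thinned sums, with cells of at least 1 UMI counted, without cells holding other types' markers, or without fetal liver plates 4 and 5; leaving out 1 plate gave 0 to 4. Bone marrow against fetal liver called 2 with the filter of 5 CPM or without fetal liver plates 4 and 5, 1 with only both tissues fitted, 0 without cells holding other types' markers, and 3 with plates as libraries, thinned sums, no cells with late megakaryocyte markers, or cells of at least 10 UMIs counted; leaving out 1 plate gave 0 to 5. Bone marrow against AGM called 4 with limma-voom or without bone marrow plates 1 to 3, 3 with cells of at least 10 UMIs counted or without bone marrow plates 4 and 5, and 2 with no filter, thinned sums, cells of at least 1 UMI counted, or without cells holding late megakaryocyte or other types' markers; leaving out 1 plate gave 1.

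The plate number in the titles was also fitted as a replicate block: this called 2 genes in fetal liver against AGM (Gp9 and Plek), 3 in bone marrow against fetal liver (Itga2b, Pf4 and Cd9) and 1 in bone marrow against AGM (Vwf). Deviations of plates from their tissue mean were also correlated between tissues. Same-numbered plates gave r from -0.0202 to 0.0775 (15 pairs, median 0.0239). Differently numbered plates gave r from -0.0756 to 0.0462 (30 pairs, median -0.00785). The 2 AGM plates deviate from their mean equally in opposite directions, so these values cannot show whether same-numbered plates shared any processing.

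Signs turned for Pf4 in fetal liver against AGM. It was 1.81 without cells with at least 3 late megakaryocyte markers and 0.0297 without cells with at least 3 markers of another type. It was 0.31 with thinned sums and 0.19 with cells of at least 10 UMIs counted. Without fetal liver plate 4 it was 0.14 (from -0.66 to 0.14 over the plates left out). Selp turned there to -0.0536 with limma-voom, -1.72 with cells of at least 10 UMIs counted and -1.97 without fetal liver plates 1 to 3. Cd9 turned there to 0.15 with cells of at least 1 UMI counted and 1.08 without cells with at least 3 markers of another type. Without bone marrow plates 1 to 3 Selp was -1.95 against the fetal liver and -1.69 against the AGM. Clec1b turned to 3.89 and 7.76 against the AGM without AGM plate 1 (from -9.09 to 3.89 in the fetal liver and from -4.08 to 7.76 in the bone marrow over the plates left out). It turned to -0.34 in bone marrow against fetal liver without cells with at least 3 markers of another type. With the block it turned to 1.31 in bone marrow against AGM. Plek turned to 1.43 in bone marrow against AGM without cells with at least 3 late megakaryocyte markers. The cause was not tested.

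Members per cell in the AGM, fetal liver and bone marrow moved with the depth and the detection threshold: to 2.10 and 1.26 (AGM and fetal liver) at 10000 UMIs, 3.35, 2.26 and 1.91 at 40000, 4.91, 2.46 and 2.15 without thinning, 1.33, 0.725 and 0.803 at 3 UMIs and 1.98, 0.546 and 0.711 at 10 UMIs, where the bone marrow exceeded the fetal liver. The co-detection ratio moved to 1.05, 1.05, 1.06 and 1.14 in the AGM (10000 UMIs, 40000 UMIs, no thinning, 10 UMIs), to 1.11, 1.11 and 1.22 in the fetal liver (10000 UMIs, no thinning, 10 UMIs) and to 1.36 and 1.44 in the bone marrow (3 and 10 UMIs). Leaving out 1 plate gave 2.47 to 2.80, 1.54 to 1.81 and 1.27 to 1.52 members per cell and ratios of 0.994 to 1.036, 1.026 to 1.046 and 1.099 to 1.182. Few UMIs limit the values of Gp1bb (6), fetal liver Clec1b (3), AGM Selp (68), and fetal liver Plek (83) and Selp (91).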
